A study of Mus musculus with 6 samples.

Results

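Imprinted genes are genes for which mainly the copy from 1 parent is transcribed, and 47 of them, in 18 chromosomal domains, were followed here in the mouse embryonic forebrain. They were listed by name, with no threshold on a measured value but with earlier results of these data known, and all 47 symbols were found among the 55416 genes of the deposited count table. In the parental origin used for grouping, 24 are reported to be read from the father's copy, 20 from the mother's copy and 3 from both or from either, depending on tissue or transcript. This grouping was not made for this tissue, and whether any gene of the 3 classes keeps to it here was not measured. Total RNA was sequenced from the ganglionic eminence, the ventral forebrain swelling that produces striatal neurons and cortical interneurons, at E13.5, a stage of active neurogenesis. Tissue of Dlx1/Dlx2 double knockout mice (3 libraries), which lack 2 neighbouring homeobox transcription factors of that tissue, was set against wildtype tissue from the same litters (3 libraries). The labels do not say how the deletion was made, whether a library is 1 embryo or a pool, or what sex the embryos were. The p-values therefore measure the spread between these libraries, whatever its source.

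At an imprinted domain a control region carries DNA methylation on the copy from only 1 parent, set in the germ line and kept through the early embryo by factors such as Zfp57 and Trim28. Genes in a domain can be read from opposite parental copies, often with a long non-coding RNA on 1 copy and protein-coding genes on the other. Many of the proteins act on fetal growth, on cell cycle exit or on endocrine and hypothalamic functions, and several domains also make small RNAs. The counts do not separate the parental copies, so every value is the sum over both, and parental origin is background knowledge.

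Read totals ran from 56618090 to 70114173 per library, so that 3 reads corresponded to between 0.0432 and 0.052 CPM, the level unit used throughout, which scales counts to the size of the library. Dlx1 measured 434, 446 and 437 CPM in the wildtype libraries and 74.9, 75.9 and 94.0 CPM in the knockout libraries. Dlx2 measured 281.8, 292 and 313 CPM against 7.50, 7.56 and 10.99 CPM, so both targeted genes were lower in every library labelled double knockout. Y-linked genes together measured 206.5 CPM in wildtype replicate 1, 213.9 CPM in knockout replicate 2 and 211.6 CPM in knockout replicate 3, and were close to 0 in the other libraries. The summed markers of ganglionic eminence were lower in the knockout libraries (1238 to 1453 CPM) than in wildtype (1594 to 1652 CPM). Markers of cortex were lower too (662 to 698 CPM against 867 to 883 CPM), and those of hypothalamus were higher (144 to 180 CPM against 29.3 to 50.2 CPM). Markers of meninges, endothelium, blood and microglia overlapped between the groups. Those of choroid plexus measured 31.2 CPM in wildtype replicate 1 and 1.02 to 1.77 CPM in the other 5 libraries. In such bulk tissue, fewer cells of a type and less RNA per cell cannot be told apart.

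Of the 47 imprinted genes, 44 had enough reads to be tested, and 11 of those were higher in the double knockout (25%) while 0 were lower. A call is an adjusted p under 0.05 (Benjamini-Hochberg) in the quasi-likelihood test of edgeR over all 23628 tested genes, by which 2.68% of genes were called, 1.34% higher and 1.34% lower. The 11 were Dlk1, Calcr, Peg10, Rtl1, Asb4, Cdkn1c, Peg12, Nap1l5, Mirg, Rian and Peg3, and 7 of them lie in the Dlk1-Dio3 and Peg10-Sgce domains. Among tested genes averaging at least 1 CPM, the share called higher was 1.77%. All 44 tested members held at least 10 reads in every library of both groups, so none was tested on account of its knockout level alone. The median log2 fold change was 0.17 over the 44 members and -0.0016 over all tested genes. The log2 fold change was above 0 in 34 of the 44 members against 49.5% of all tested genes. Among 29 tested imprinted genes outside this list, 13 were above 0 and 16 below, with a median of -0.03.

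By range alone, 22 members had all 3 knockout libraries above all 3 wildtype libraries and 2 had them below, against 9.3% of all tested genes above and 10.2% below (19.5% either way). The remaining 20 members overlapped between the groups. Called genes came from both parental classes. Of 24 tested genes reported as paternally expressed 6 were called higher, with a median log2 fold change of 0.16. Of 17 tested genes reported as maternally expressed 5 were called higher, with a median of 0.21, and of the 3 mixed genes 0 were. No difference between these classes was tested, and the classes themselves were not checked in this tissue.

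**Figure D1:**
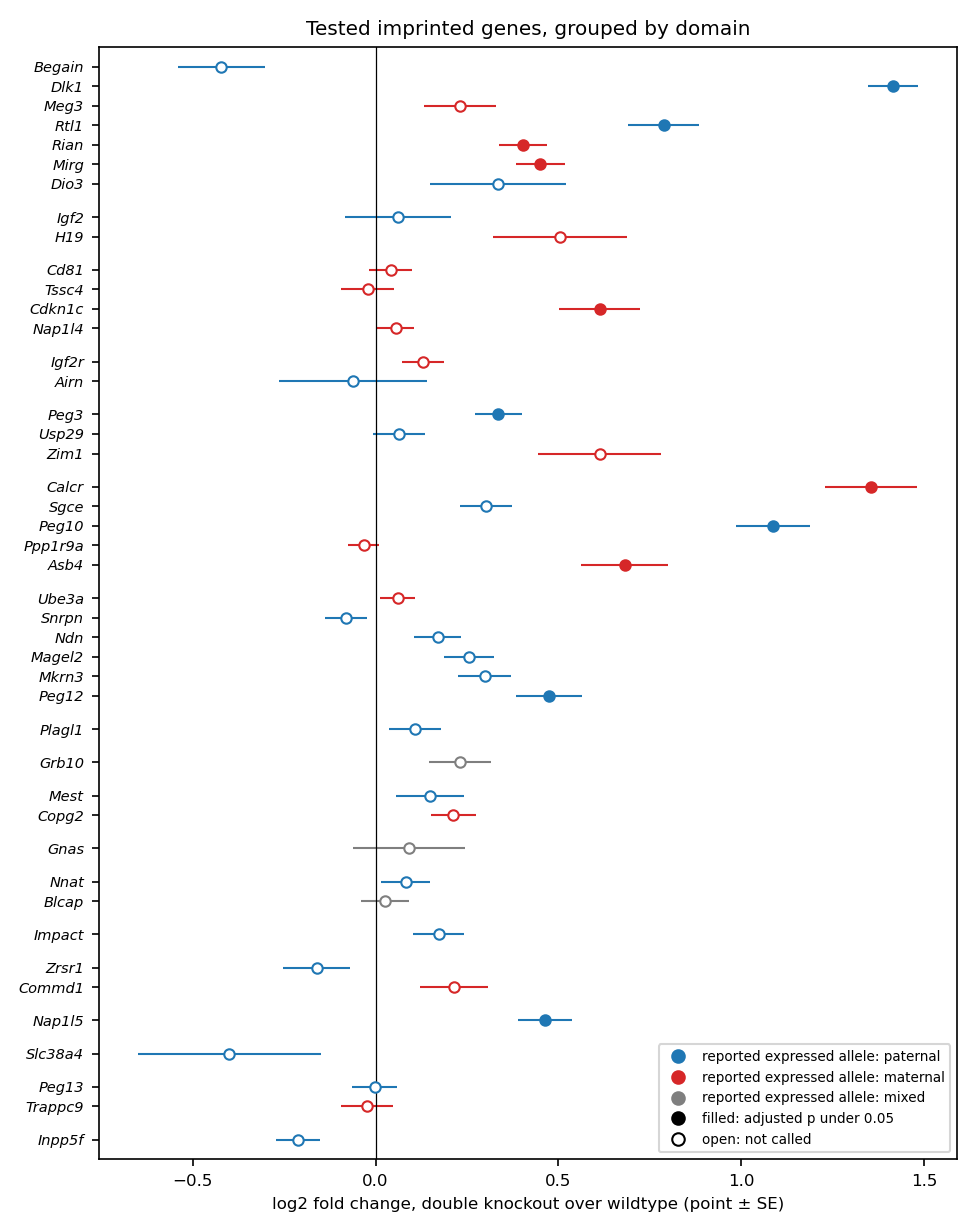
Log2 fold change (double knockout over wildtype, horizontal axis, edgeR, bars are standard errors) of the 44 tested imprinted genes, grouped by domain on the vertical axis. The 11 called genes all lie to the right of 0, from 0.34 (Peg3) to 1.42 (Dlk1), and the others lie between -0.42 (Begain) and 0.61 (Zim1).

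The Dlk1-Dio3 domain on chromosome 12 held 4 called members of 7 tested, Dlk1, Rtl1, Rian and Mirg, with a median log2 fold change of 0.40 over the 7. Dlk1, a transmembrane protein with EGF repeats related to the Notch ligands, is reported as paternally expressed. It measured 53.7, 57.9 and 56.7 CPM in wildtype and 141.5, 142.6 and 164.8 CPM in the knockout. Its 3 knockout libraries lay well above the 3 wildtype libraries, and the log2 fold change was 1.42 ± 0.07 (SE, edgeR, adjusted p = 2.01e-05). Rtl1, a protein derived from the gag and pol genes of a retrotransposon and also paternally expressed, measured 25.6, 29.7 and 24.5 CPM against 49.96, 46.9 and 40.9 CPM. The groups did not overlap, and the log2 fold change was 0.79 ± 0.10 (edgeR, adjusted p = 0.00386).

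The maternally expressed non-coding RNAs of the same domain moved less. Rian, a long RNA that carries small nucleolar RNAs in its introns, measured 415, 384 and 413 CPM in wildtype and 561, 546 and 495 CPM in the knockout. Mirg, the long RNA that follows Rian, contains a group of microRNA hairpins. It measured 37.4, 37.9 and 39.7 CPM against 54.1, 55.1 and 48.2 CPM. In both genes every knockout library was above every wildtype library, with knockout replicate 3 the lowest of the 3. The log2 fold changes were 0.40 ± 0.07 for Rian (edgeR, adjusted p = 0.0156) and 0.45 ± 0.07 for Mirg (edgeR, adjusted p = 0.0092). Meg3, the long RNA that begins the maternal transcripts, was not called: it measured 521, 493 and 509 CPM against 680, 601 and 507 CPM, a log2 fold change of 0.23 (edgeR, adjusted p = 0.356). Knockout replicate 3 fell inside its wildtype range, and without that library Meg3 passed the threshold (edgeR, adjusted p = 0.0321).

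Dio3, the deiodinase that inactivates thyroid hormone, was measured at a low level, with 4.61, 4.15 and 4.69 CPM against 6.41, 6.56 and 4.02 CPM. Knockout replicates 1 and 2 were above the wildtype range and replicate 3 was below it. Its log2 fold change was 0.33 (edgeR, adjusted p = 0.517), and without knockout replicate 3 its adjusted p was 0.0496. Begain, which encodes a protein bound to the synaptic scaffold and lies at the other end of the domain, had a log2 fold change below 0. It measured 29.5, 27.3 and 29.0 CPM against 23.1, 23.8 and 17.2 CPM, without overlap, and missed the threshold at -0.42 (edgeR, adjusted p = 0.136). DESeq2 called Begain lower (adjusted p = 0.0192).

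The RefSeq sequence just upstream of the annotated start of Dlk1 (chr12:109452573-109452822, plus strand, GRCm38.p6) is given because Dlk1 had the highest fold change of the members. CpG dinucleotides, the sites of DNA methylation, are in capitals.

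Dlk1: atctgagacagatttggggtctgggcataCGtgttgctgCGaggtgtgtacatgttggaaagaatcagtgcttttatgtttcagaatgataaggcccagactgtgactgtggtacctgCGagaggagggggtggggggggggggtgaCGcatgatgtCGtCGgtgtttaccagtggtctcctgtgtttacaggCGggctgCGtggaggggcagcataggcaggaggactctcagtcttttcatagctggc

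This stretch of 250 bases holds 8 CpG, against a median of 6 over 32851 mouse promoters of the same length and 11 over the 61 RefSeq promoters matched to 38 of the 47 members. Methylation was not measured in these libraries.

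MicroRNA hairpins lie on the strand opposite to Rtl1 and inside Mirg, both of which were called, and RefSeq places 54 hairpins between Meg3 and Mirg on the plus strand. Total RNA libraries of this kind do not measure mature microRNAs, so the sequences give only the content of the transcribed region. The first 5 have hairpins opposite Rtl1, and capitals mark the seed (bases 2 to 8), the stretch that pairs with targets. The miR-127-3p sequence lies at chr12:109592888-109592909 and the miR-136-5p sequence at chr12:109595331-109595352 (plus strand, GRCm38.p6).

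miR-127-3p: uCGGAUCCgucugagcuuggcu

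miR-433-3p: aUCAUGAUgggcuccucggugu

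miR-434-3p: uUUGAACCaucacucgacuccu

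miR-431-5p: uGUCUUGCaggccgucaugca

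miR-136-5p: aCUCCAUUuguuuugaugaugg

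These 5 have different seeds. Among 105 mature microRNAs from Meg3 to Mirg, 16 share a seed with another, in 8 pairs, and 1 pair lies inside Mirg.

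miR-453: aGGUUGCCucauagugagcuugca

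miR-496a-5p: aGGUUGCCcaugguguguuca

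Because 516 bases of Rtl1 exon are also read on the other strand as microRNA hairpins in GENCODE M21, and the strand setting of the counting is not given in the sources used here, reads from the opposite strand could have been counted for Rtl1.

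The Peg10-Sgce domain on chromosome 6 held 3 called members of 5 tested, Calcr, Peg10 and Asb4. Its median log2 fold change of 0.68 was the highest among domains with more than 1 tested member. Calcr, the calcitonin receptor, a G protein-coupled receptor, measured 3.48, 3.95 and 3.15 CPM in wildtype and 8.12, 9.61 and 9.33 CPM in the knockout. The groups were far apart, with a log2 fold change of 1.35 ± 0.13 (edgeR, adjusted p = 8.83e-04). Peg10, a retrotransposon-derived protein with gag and pol parts that is required in the placenta, measured 490, 572 and 557 CPM against 1067, 1058 and 1314 CPM. Every knockout library was higher, and the log2 fold change was 1.09 ± 0.10 (edgeR, adjusted p = 8.61e-04).

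Asb4, an ankyrin-repeat protein of the SOCS-box family that is known from hypothalamic neurons, measured 59.6, 76.1 and 68.0 CPM in wildtype and 98.4, 99.9 and 128.5 CPM in the knockout. All 3 knockout libraries were above the wildtype range, and the log2 fold change was 0.68 ± 0.12 (edgeR, adjusted p = 0.0208). Sgce, epsilon-sarcoglycan, did not overlap either (25.3, 27.2 and 26.8 CPM against 30.1, 34.1 and 33.5 CPM) but missed the threshold at 0.30 (edgeR, adjusted p = 0.0725). Ppp1r9a, the actin-binding protein neurabin, had a log2 fold change of -0.03 (edgeR, adjusted p = 0.835), with 147 to 152 CPM in wildtype and 144 to 148 CPM in the knockout.

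**Figure D2:**
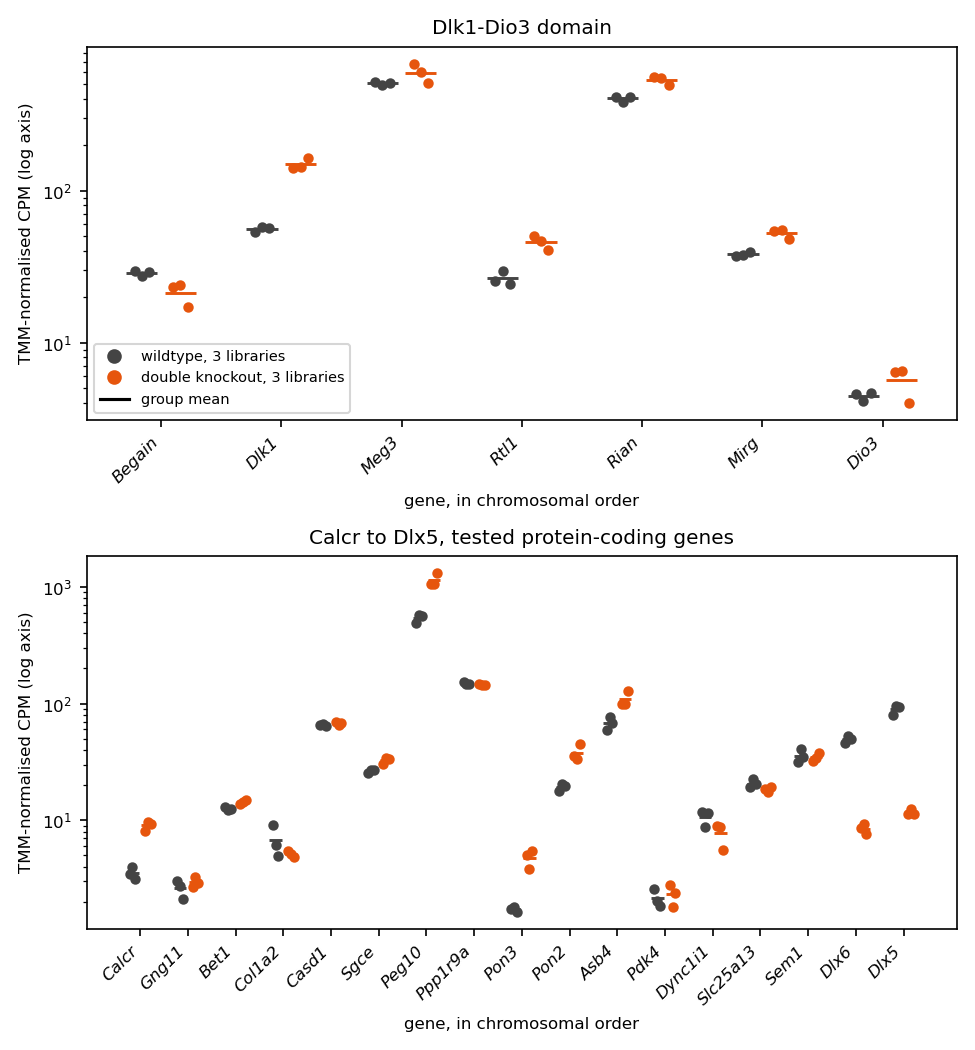
TMM-normalised CPM (log vertical axis) of genes in chromosomal order, with 1 point per library, 3 wildtype and 3 double knockout. The upper panel shows the Dlk1-Dio3 domain. The lower panel shows the tested protein-coding genes from Calcr to Dlx5, which include the Peg10-Sgce members and genes that are not members. The groups are well apart for Dlk1 (53.7 to 57.9 CPM against 141.5 to 164.8 CPM), Calcr and Peg10, while Ppp1r9a overlaps.

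Calcr, with 2 RefSeq starts, and Asb4 lie at the ends of the domain, and the 250 bases before the upstream Calcr start (chr6:3764714-3764963, minus strand) and before the first Asb4 start (chr6:5383136-5383385, plus strand, both GRCm38.p6) are shown to compare their CpG content. CpG dinucleotides are in capitals.

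Calcr: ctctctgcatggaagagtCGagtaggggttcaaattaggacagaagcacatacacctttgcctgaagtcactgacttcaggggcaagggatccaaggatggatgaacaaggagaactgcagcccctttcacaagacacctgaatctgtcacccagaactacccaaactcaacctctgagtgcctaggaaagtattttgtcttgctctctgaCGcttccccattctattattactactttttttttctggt

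Asb4: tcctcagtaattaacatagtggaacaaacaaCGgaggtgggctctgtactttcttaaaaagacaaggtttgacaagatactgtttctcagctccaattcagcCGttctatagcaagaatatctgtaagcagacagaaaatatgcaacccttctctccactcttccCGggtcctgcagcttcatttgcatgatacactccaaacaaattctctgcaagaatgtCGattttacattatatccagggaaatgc

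The Calcr stretch holds 2 CpG and the Asb4 stretch 4, fewer than the median of 6 over all promoters. The 250 bases before the downstream Calcr start hold 24 and those before the second Asb4 start hold 8, both above that median. The Asb4 stretch also holds the letters TAATTA, the core bound by many homeodomain proteins, searched on both strands. These letters occur in 4.84% of all promoters of this length and in 1 of the 61 promoters of imprinted genes. The letters TGCCGC, the core bound by Zfp57 when methylated, were found in 13.1% of the promoters of imprinted genes and in 8.68% of all promoters, with 1 match each for Calcr (at the downstream start) and Nap1l5 among called genes. TGCCGC itself holds a CpG, and the promoters of imprinted genes had a median of 11 CpG and 58% G and C, against 6 and 52.4% over all promoters. A match describes the letters in this window and not a bound site.

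The genes around this domain were looked at after the values of its members were seen. From Calcr to Asb4, RefSeq orders 14 protein-coding genes, of which 11 were tested, 5 were called higher and 0 lower. Of all tested genes, 1.34% were called higher and 1.34% lower. The 5 include the 3 members Calcr, Peg10 and Asb4, whose values prompted the look. The other 2 were the paraoxonases Pon3 and Pon2, enzymes that hydrolyse lactones. Gng11, Bet1, Col1a2 and Casd1, which are not members either, were tested and not called. Pon3 measured 1.74, 1.81 and 1.64 CPM in wildtype and 5.02, 3.80 and 5.41 CPM in the knockout (log2 fold change 1.46 ± 0.16, edgeR, adjusted p = 0.00232). Pon2 measured 17.7, 20.4 and 19.8 CPM against 35.4, 33.5 and 44.98 CPM (log2 fold change 0.97 ± 0.12, edgeR, adjusted p = 0.00328). Both genes were higher in 3 of 3 knockout libraries without overlap. Of the next 6 protein-coding genes, from Pdk4 to Dlx5, all were tested, 0 were higher and 2 were lower. Those 2 were Dlx6, at 46.3, 52.8 and 49.9 CPM against 8.49, 9.30 and 7.61 CPM, and Dlx5, at 79.9, 95.3 and 92.7 CPM against 11.3, 12.5 and 11.4 CPM. Called genes of opposite direction thus stood in the same chromosomal neighbourhood, with uncalled genes between them.

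In the Kcnq1 domain on chromosome 7, Cdkn1c was the called member of 4 tested. It encodes p57, an inhibitor of cyclin-dependent kinases that acts at cell cycle exit, and measured 50.5, 58.2 and 65.4 CPM in wildtype and 84.2, 101.7 and 80.4 CPM in the knockout. The groups did not overlap, and the log2 fold change was 0.61 ± 0.11 (edgeR, adjusted p = 0.025). Cdkn1c shares 625 bases on the opposite strand with Gm44732, which held at most 2 reads in any library. How reads in shared bases were counted is not known, so the level of Cdkn1c is uncertain to that extent. Cd81, a tetraspanin, Tssc4 and the histone chaperone Nap1l4 had log2 fold changes of 0.04, -0.02 and 0.06. Ascl2, Slc22a18 and Phlda2, of which Ascl2 and Phlda2 are best known from the placenta, were not tested: their counts were 1, 0 and 0 reads against 7, 3 and 5 for Ascl2, 4, 8 and 1 against 1, 2 and 0 for Slc22a18, and 0, 0 and 2 against 1, 0 and 1 for Phlda2.

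In the neighbouring Igf2-H19 domain neither gene was called. H19, a long non-coding RNA, measured 80.3, 76.1 and 85.5 CPM in wildtype and 101, 86.5 and 155.5 CPM in the knockout, without overlap, and its log2 fold change of 0.51 had an adjusted p of 0.265 (edgeR). Knockout replicate 3 stood far above the other knockout libraries, and without it the log2 fold change was 0.23. Igf2, the fetal growth factor, measured 2.51 to 3.14 CPM in wildtype and 2.65 to 3.004 CPM in the knockout. Its level is uncertain because 3596 of its 5723 exonic bases are shared, on the same strand, with the annotated gene Gm49394, which held 0 reads in all 6 libraries. The receptor gene Igf2r and its antisense RNA Airn had log2 fold changes of 0.13 and -0.06, neither called.

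In the Peg3 domain Peg3, a zinc-finger protein, measured 385, 405 and 440 CPM in wildtype and 531, 526 and 495.5 CPM in the knockout. The groups did not overlap, and its log2 fold change of 0.34 ± 0.07 was the lowest of the called members (edgeR, adjusted p = 0.0333). Usp29, whose RefSeq start lies 164 bases from that of Peg3 on the other strand, had a log2 fold change of 0.06 (edgeR, adjusted p = 0.806). Usp29 shares 2582 bases on the opposite strand with Zim3, so its reads may be split. Zim1, a maternally expressed zinc-finger gene of the domain, measured 13.2, 12.6 and 10.3 CPM against 20.7, 20.9 and 13.7 CPM. Its log2 fold change of 0.61 was the highest of the uncalled members and had an adjusted p of 0.125 (edgeR), with knockout replicate 3 just above the wildtype range. Zim1 was called higher in 4 of the 14 alternative settings, among them DESeq2, no filter on low counts and without knockout replicate 3, with adjusted p down to 0.00525.

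In the Snrpn-Ube3a domain, the mouse counterpart of the Prader-Willi and Angelman region, Peg12 was called among 6 tested. Peg12, an intronless gene of the Frat family of GSK3-binding proteins, measured 31.3, 37.3 and 33.7 CPM against 44.2, 45.2 and 52.7 CPM. The groups did not overlap, and the log2 fold change was 0.48 ± 0.09 (edgeR, adjusted p = 0.0308). The MAGE-family genes Ndn and Magel2 and the ring-finger gene Mkrn3, all paternally expressed, had log2 fold changes of 0.17, 0.25 and 0.30 (edgeR, adjusted p = 0.290, 0.111 and 0.0837). None of these 3 overlapped between the groups. Snrpn, a core splicing protein, and the ubiquitin ligase Ube3a had values of -0.08 and 0.06. Snrpn is uncertain, since 805 bases are shared on the same strand with Snurf, listed at 0 reads in all libraries, and with Gm38393, which held 4237 to 5096 reads. Ube3a is uncertain too. Its overlaps on the opposite strand, with Snhg14, Gm44560 and 9330162G02Rik, add up to 5624 bases, so its reads may be split.

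Nap1l5, a paternally expressed gene of the nucleosome assembly family that lies in an intron of Herc3, measured 23.1, 21.7 and 20.2 CPM in wildtype and 31.1, 29.7 and 28.9 CPM in the knockout. These were tight, separate groups, with a log2 fold change of 0.46 ± 0.07 (edgeR, adjusted p = 0.0133). No member was called in the other 12 domains, which include those of Igf2 and Igf2r. Of the others, the zinc-finger gene Plagl1 (0.11), the insulin receptor adaptor Grb10 (0.23), Mest (0.15), the coatomer gene Copg2 (0.21), the G protein gene Gnas (0.09), the neuronal proteolipid gene Nnat (0.08), Blcap (0.03), Impact (0.17) and Commd1 (0.21) had log2 fold changes above 0. Zrsr1 (-0.16), the amino acid transporter Slc38a4 (-0.40), Peg13 (-0.00), Trappc9 (-0.02) and the inositol phosphatase Inpp5f (-0.21) had values below 0. Of these, Inpp5f did not overlap between the groups, with 250.5 to 271.7 CPM in wildtype and 208 to 234.5 CPM in the knockout (edgeR, adjusted p = 0.145). Mest and Copg2 share 912 bases on opposite strands, Zrsr1 and Commd1 share 412, and Gnas shares 2457 with antisense genes, so their reads may be split. Over all 33 uncalled members, 23 log2 fold changes were above 0 and 10 below, with adjusted p-values from 0.0725 to 0.996 (edgeR). At an unadjusted p under 0.05, edgeR would have passed 24 of the 44 members, against 13.3% of all tested genes.

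**Figure D3:**
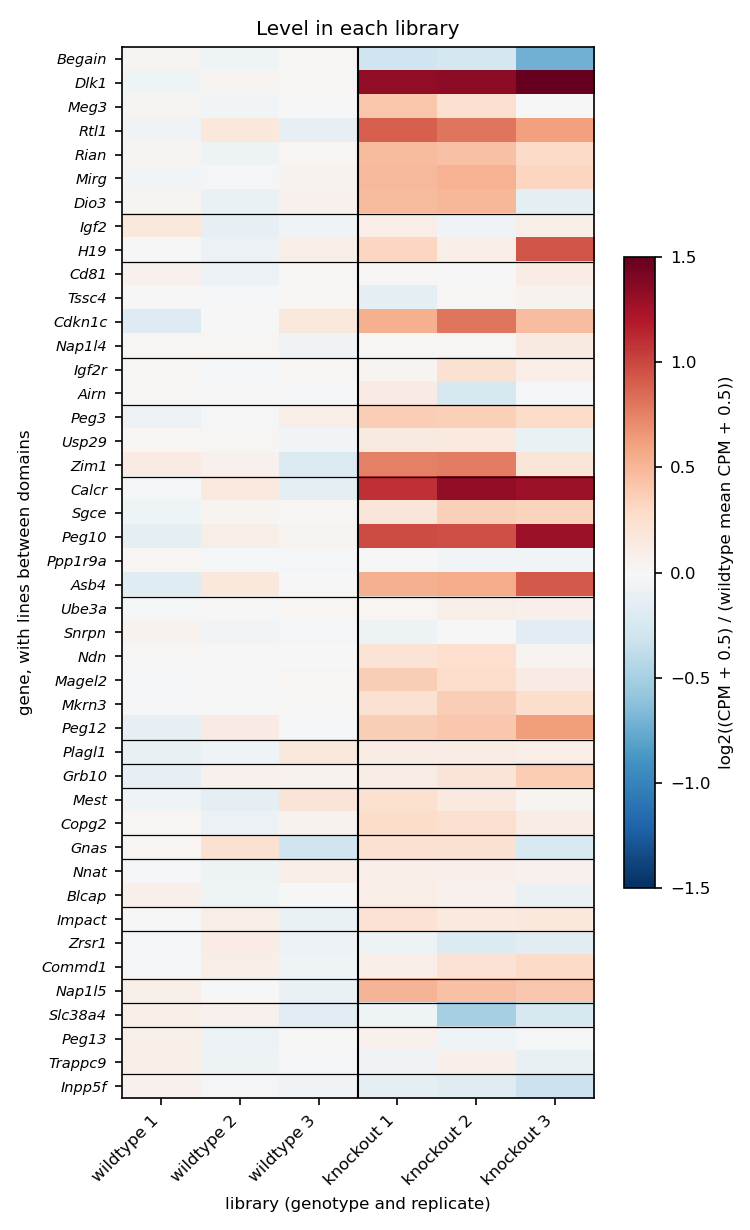
Level of each imprinted gene in each of the 6 libraries (columns, wildtype left of the line and double knockout right of it), shown as colour for the log2 ratio of its CPM to its wildtype mean, with genes in rows by domain. Dlk1, Calcr and Peg10 are raised in all 3 knockout columns, while in the column of knockout replicate 3 Zim1 is raised less than in the other knockout columns, Meg3 is at its wildtype level and Dio3 is below it.

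The 3 knockout libraries were not alike for these genes. Knockout replicate 3 was the lowest of the 3 in 22 of the 44 tested members (50%), against 38.9% of all tested genes, while replicates 1 and 2 were each the lowest in 11. The median log2 ratio of the members to their wildtype mean was 0.20 in knockout replicate 1, 0.21 in replicate 2 and 0.11 in replicate 3. For Dlk1, Peg10, Asb4 and Peg12 replicate 3 was instead the highest. Summed hypothalamic markers were also lowest in this library (144 CPM against 171 and 180 CPM). There Sim1 (2.96 CPM against 20.7 and 16.9 CPM in replicates 1 and 2) and Fezf1 (6.04 CPM against 22.3 and 27.1 CPM) were low. Otp (121 CPM against 121.3 and 112.9 CPM), Hmx2 (4.70 CPM against 5.50 and 4.56 CPM) and Hmx3 (7.06 CPM against 7.95 and 7.16 CPM) stayed near replicates 1 and 2. Its ganglionic eminence markers were the highest of the 3 (1453 CPM against 1238 and 1283 CPM). The part of these markers in the differences between libraries was not tested.

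Among the 9 hypothalamic markers, 3 of 7 tested were called higher: Otp, Hmx3 and Hmx2, homeobox genes with log2 fold changes of 3.65, 2.63 and 1.87. Without these 3 the summed level overlapped between the groups (21.0 to 36.6 CPM in wildtype and 11.4 to 46.3 CPM in the knockout), and Rax held at most 3 reads in every library. Of 9 ganglionic eminence markers, 3 were called higher and 4 lower, and of 6 cortical markers 0 were higher and 1 lower. Of all tested genes, 1.34% were called higher and 1.34% lower. All 6 cortical markers had log2 fold changes below 0. In 5 of them the knockout libraries were lower without overlap, against 10.2% of all tested genes. The part of these shifts in the levels of the imprinted genes was not tested.

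Partner genes within a domain were compared as log2 ratios of their counts in the same library, which do not depend on scaling. In 13 pairs, the exact permutation test of 3 against 3 libraries (two-sided) can give no p below 0.10, and after adjustment over the 13 pairs the lowest value was 0.186. The ratio of Dlk1 to Meg3 was -3.28, -3.09 and -3.17 in wildtype and -2.27, -2.07 and -1.62 in the knockout, a difference of 1.19 without overlap (exact p = 0.1, adjusted p = 0.186). The ratio of Peg10 to Sgce, whose RefSeq gene ends nearest each other are 102 bases apart, was 4.28, 4.39 and 4.38 against 5.15, 4.96 and 5.29, a difference of 0.78. The ratio of Nap1l5 to its host Herc3 was -0.53, -0.49 and -0.48 against -0.24, -0.29 and -0.39, a difference of 0.19. These last 2 pairs were added after the data had been seen.

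Sgce to Ppp1r9a differed by 0.33, Igf2 to H19 by -0.40 (-0.18 without knockout replicate 3), Snrpn to Ube3a by -0.14 and Zrsr1 to Commd1 by -0.37, also without overlap between the groups. The remaining 6 ratios overlapped: Igf2 to Igf2r (-0.06), Airn to Igf2r (-0.21), Peg3 to Zim1 (-0.26), Mest to Copg2 (-0.06), Nnat to Blcap (0.06) and Peg13 to Trappc9 (0.02).

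**Figure D4:**
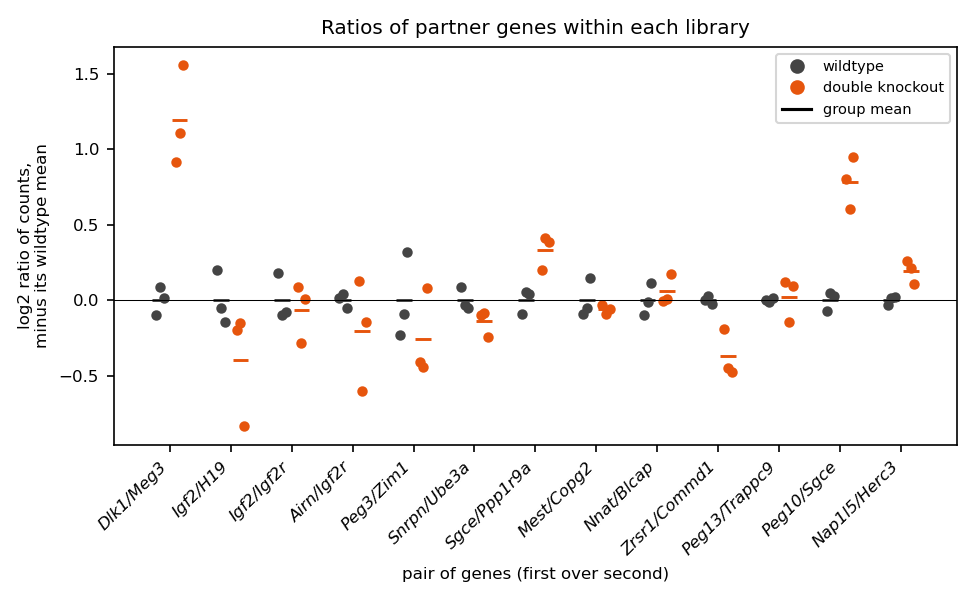
Log2 ratio of counts of 13 pairs of partner genes in each library, minus the wildtype mean of the pair (vertical axis), with pairs along the horizontal axis and 1 point per library. Dlk1 over Meg3 is raised most, by 1.19 on average, followed by Peg10 over Sgce at 0.78, and 6 pairs overlap between the groups.

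Levels per kilobase of exon spanned a wide range in wildtype tissue. They compare genes only roughly. The lengths join all exons annotated in GENCODE M21, the annotation release of the counts is not given, and some genes share bases with others. Nnat was the highest at 884 ± 59.4 CPM per kb (SD, n = 3), followed by Ndn at 93.9 ± 1.06, Peg10 at 80.9 ± 6.51 and Mest at 62.7 ± 8.06 CPM per kb, and these neighbours in the order did not overlap. Grb10 (51.2 CPM per kb) and Nap1l4 (50.8 CPM per kb) overlapped. Meg3 (28.1 CPM per kb) and Rian (22.2 CPM per kb) stood in the middle, above Dlk1 at 9.92 ± 0.38 CPM per kb, which was rank 27 of 47. Dlk1 overlapped Ppp1r9a and lay above Gnas. Mirg (5.26 CPM per kb) and Rtl1 (4.18 CPM per kb) were lower, and Calcr was rank 41 at 0.90 ± 0.10 CPM per kb. In the knockout Peg10 reached 172 CPM per kb, Dlk1 26.4 CPM per kb and Calcr 2.31 CPM per kb.

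The calls differed in how far they depended on single libraries. Dlk1, Calcr, Peg10 and Rtl1 passed the threshold in all 14 alternative settings, with highest adjusted p-values of 4.07e-04, 0.00711, 0.00558 and 0.0257. The other 7 called members lost the call in at least 1 setting while staying higher. Mirg lost it without wildtype replicate 2 (adjusted p = 0.0528), Rian without any wildtype library or knockout replicate 1 or 2 (up to 0.0713), and Nap1l5 without wildtype replicate 2 or 3 or knockout replicate 1 or 2 (up to 0.0604). With the Y-linked level as a covariate Asb4, Cdkn1c and Peg12 were not called (adjusted p = 0.0732, 0.0685 and 0.094), although their log2 fold changes of 0.69, 0.64 and 0.48 were no smaller than without it. Asb4 also lost the call without wildtype replicate 1 or 3 (up to 0.0834), Cdkn1c without wildtype replicate 1 or 2 or knockout replicate 1 or 2 (up to 0.101), and Peg12 without wildtype replicate 1 or 3 or knockout replicate 1 or 2 (up to 0.124). Peg3 lost it with the replicate block (adjusted p = 0.0667) and without wildtype replicate 1 or 2 or knockout replicate 1 or 2 (up to 0.158). In all, 6 members were called without wildtype replicate 1, 6 without wildtype replicate 2, 7 without wildtype replicate 3, 6 without knockout replicate 1, 6 without knockout replicate 2 and 17 without knockout replicate 3. Members that gained a call, besides Meg3, Dio3, Begain and Zim1, were Sgce (total count scaling and DESeq2), Magel2 (DESeq2 and without knockout replicate 3), Mkrn3 (DESeq2), and Ndn and Copg2 (without knockout replicate 3). Each call made without a library was higher, and each of these fits has fewer samples than the full comparison.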

How the data were processed

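Total RNA was depleted of ribosomal RNA and made into stranded libraries, per the labels' protocols. The authors deposited whole-number read counts per gene, made with featureCounts on GRCm39, per the submitters' processing notes; the aligner, annotation release and strand setting are not given in the sources used here. The members and all gene lists were chosen with earlier results of these data known. Groups follow the genotype in the sample titles, and every per-library column was used.

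Genes passing edgeR's filterByExpr (version 4.0.16, minimum count 10, minimum total 15) were scaled by TMM and tested with the quasi-likelihood test, all 6 libraries in 1 fit of genotype, with Benjamini-Hochberg adjustment over 23628 genes. CPM values are TMM-normalised. Ratios of partner genes used a pseudocount of 0.5 and an exact permutation test. All 47 members are accounted for; every called member is given in full, and of other lists at most the 6 called genes with the largest change. The 14 alternatives used DESeq2 1.42.0, limma-voom 3.58.1 (R 4.3.3), other scalings and filters, a replicate block, a Y-linked covariate, and each library left out. Scripts were tested on simulated data. At these depths 3 reads, the limit that a count of 0 allows, correspond to 0.0432 to 0.052 CPM, for counting error only. Exon lengths and overlaps came from GENCODE M21 (GRCm38), which held 94.1% of the table's gene identifiers, and sequences from RefSeq (GRCm38.p6); this build differs from that of the counts, so positions are given only for the printed sequences.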

Additional observations from a re-analysis of the deposited data

How the results depend on the processing

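All 634 genes called (317 higher, 317 lower) and the 11 called members were recomputed under 14 alternatives. The count of genes was 1168 with DESeq2 (592 higher, 576 lower), 359 with the Y-linked covariate, and 309 to 749 when a library was left out. Total count scaling called 390 higher and 256 lower. The count of members was 16 with DESeq2, with 15 higher and Begain lower, 8 with the Y-linked covariate, 11 or 12 in the other full-sample settings, and 6 to 17 when a library was left out. The median over the members stayed between 0.151 and 0.201 in all 14. Among partner ratios whose groups overlapped, a left-out library changed the sign of Igf2 to Igf2r (-0.138 to 0.046), Mest to Copg2 (-0.105 to 0.012) and Peg13 to Trappc9 (-0.024 to 0.107), and Igf2 to H19, whose groups did not overlap, ranged from -0.519 to -0.176. Fewer samples entered the fits without a library; the cause of the other changes was not tested.

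Uncalled members near 0 changed sign. Peg13 was at 0.002 with DESeq2 size factors, 0.026 with total count scaling, 0.003 with DESeq2, 0.008 without the filter, 0.010 at a mean of at least 1 CPM, and -0.047 to 0.046 with a library left out. With total count scaling Tssc4 was at 0.006 and Trappc9 at 0.005. With a library left out, the ranges were -0.004 to 0.163 for Igf2, -0.000 to 0.073 for Cd81, -0.055 to 0.034 for Tssc4, -0.193 to 0.067 for Airn, -0.038 to 0.236 for Gnas, -0.016 to 0.094 for Blcap and -0.080 to 0.024 for Trappc9.

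Same-numbered libraries were not taken as pairs, because the labels state no pairing. The correlations of their deviations were -0.0629, -0.00129 and 0.035 over all tested genes. Over genes averaging 1 CPM or more, leaving out Xist and the Y-linked genes, they were 0.256, 0.0831 and 0.131, with 5 of 6 libraries correlating best with their own number. With the replicate block 690 genes and 11 members were called, with Zim1 in place of Peg3.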

Other observations

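Of 38 further imprinted genes, 36 were found by symbol and 29 tested, with 3 called higher and 2 lower by edgeR and a median log2 fold change of -0.03. The share called higher was 10.3%, while 1.34% of all tested genes were called higher and 1.34% lower. Besides Pon2 and Pon3 the higher gene was Zdbf2, a paternally expressed gene with known effects on growth, at 188, 186 and 209 CPM in wildtype and 314, 316 and 259 CPM in the knockout (0.61, edgeR, adjusted p = 0.00781). The lower genes were Th, tyrosine hydroxylase (-1.47, edgeR, adjusted p = 0.00492), and Smoc1, a secreted calcium-binding protein (-0.66, edgeR, adjusted p = 0.00402). Neither group of libraries overlapped the other in these 3 genes.

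Of 16 genes with roles in setting, keeping or removing imprints, 13 were tested, 0 were called higher and 1 was lower. This was Zfp57, a zinc-finger protein that binds methylated imprinting control regions, at 171, 177 and 161 CPM in wildtype and 139, 128 and 110 CPM in the knockout (-0.43, edgeR, adjusted p = 0.0318). The call was lost in 7 of 14 settings, with adjusted p up to 0.124: total count scaling, a mean of at least 1 CPM, the Y-linked covariate, and without wildtype replicate 1, 2 or 3 or knockout replicate 2. Dnmt3l, Ctcfl and Dppa3 held at most 3 reads in every library.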
